A study of Homo sapiens with 6 samples.

Results

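The 98 genes described here encode the proteins of the cytoplasmic ribosome, their paralogues and the factors that drive peptide elongation. They were taken from the 61806 rows of the count table by name: protein-coding genes whose symbol starts with RPL or RPS and a digit (the RPS6K kinase genes left out), RPLP0, RPLP1, RPLP2, RPSA and RACK1, and the elongation factor genes EEF1A1, EEF1B2, EEF1D, EEF1G and EEF2. The rule used no measured value. It gave 77 ribosomal protein genes (46 of the 60S and 31 of the 40S subunit), 11 paralogues whose names end in L, L1, X or Y, the 5 elongation factor genes and 5 other rows. RPS4X falls among the paralogues by its name, although it is the copy of RPS4 that most human cells use. Of the 98 genes, 96 passed the filter on low counts, among 19485 tested in all. The exceptions were the paralogues RPL10L and RPS4Y2, at 0 counts in all 6 libraries.

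RNA came from NB4, an established line of acute promyelocytic leukaemia, in logarithmic growth and with no drug applied. The 3 CD69-overexpressing libraries are from cells stably transduced with a lentivirus, and the 3 control libraries are from NB4 cells with the vector, labelled wild type. CD69 is an activation receptor of white blood cells. The labels put all 6 libraries in batch 1, and they do not say whether replicates were transduced apart. A p-value thus speaks only for the scatter of these 6 libraries, and a group may be 1 transduced population.

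Ribosomal proteins line the RNA core of the small (40S) and large (60S) subunits, and cells make them in matched amounts. Elongation then cycles on the assembled ribosome: eEF1A brings aminoacyl-tRNA, the eEF1B complex recharges eEF1A with GTP, and eEF2 moves the ribosome along by one codon. The mRNAs of nearly all of these proteins begin with a cytosine followed by a run of pyrimidines, the 5′ terminal oligopyrimidine (TOP) motif, through which mTORC1 and LARP1 set their translation and stability together. Myeloid precursors are rich in ribosomes, and human bone marrow is among the tissues hit first when a ribosomal protein gene is lost, as in Diamond-Blackfan anaemia.

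These annotated start sites are printed to compare members that were called, and RPL39 near the threshold, by whether they carry the shared motif. Each window runs from 40 bases before the start to base 20 of the transcript, 5′ to 3′ on the gene's strand, from RefSeq on GRCh38.p14. Capitals mark an unbroken run of at least 5 pyrimidines that holds the annotated start.
EEF1A1: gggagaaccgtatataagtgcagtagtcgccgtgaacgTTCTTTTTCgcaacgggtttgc
EEF1B2: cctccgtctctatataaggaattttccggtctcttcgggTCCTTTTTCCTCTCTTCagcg
EEF2: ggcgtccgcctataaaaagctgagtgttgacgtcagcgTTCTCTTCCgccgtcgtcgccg
RPS12: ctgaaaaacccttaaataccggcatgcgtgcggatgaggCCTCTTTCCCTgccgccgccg
RPL11: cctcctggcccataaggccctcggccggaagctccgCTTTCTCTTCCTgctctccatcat
RPL21: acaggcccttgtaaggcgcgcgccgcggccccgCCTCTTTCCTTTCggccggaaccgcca
RPS3: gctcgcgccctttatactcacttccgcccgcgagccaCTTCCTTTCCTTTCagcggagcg
RPL22: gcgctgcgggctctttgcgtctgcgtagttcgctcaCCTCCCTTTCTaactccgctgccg
RPL39: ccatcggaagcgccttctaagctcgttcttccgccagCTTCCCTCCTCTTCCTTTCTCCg
RPL10A: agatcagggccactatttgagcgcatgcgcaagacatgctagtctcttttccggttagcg
RPL26L1: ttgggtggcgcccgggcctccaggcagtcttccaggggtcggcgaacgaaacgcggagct
RPL7L1: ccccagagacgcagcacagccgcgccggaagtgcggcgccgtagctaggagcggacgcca
RPS27L: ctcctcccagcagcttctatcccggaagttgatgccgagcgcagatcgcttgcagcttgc
The EEF1A1 window lies at chr6:73521013-73521072 (minus strand), that of RPS12 at chr6:132814529-132814588 (plus strand) and that of RPL10A at chr6:35468361-35468420 (plus strand). RPL10A carries a run of pyrimidines just downstream of its annotated start, which is an adenine, so it does not meet the rule used here, a C at the annotated start with C or T in each of the first 5 bases. Of the 62 ribosomal protein genes with an entry in the promoter table, 47 (75.8%) met that rule, against 6.91% of 11245 other tested coding genes and 5.14% of all 27305 genes in the table. It was met by 3 of 4 elongation factors and by 2 of 9 paralogues (22.2%). RPL26L1, RPL7L1 and RPS27L, the 3 paralogues that rose, were not among those 2.

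Ribosomal protein transcripts as a class lay slightly lower in the overexpressing cells, by about the spread between replicates. The 77 genes held 5.35%, 5.41% and 6.44% of all counts in the overexpressing libraries, against 5.93%, 5.97% and 7.24% in the controls. The ranges overlapped, because replicate 3 was the highest library of both groups. Taken by replicate number, the ratio of overexpressing to control share was 0.901, 0.907 and 0.889. The share averaged 5.73 ± 0.61% in overexpressing cells and 6.38 ± 0.75% in controls (SD, n = 3 each). Single fold changes were also small: the median log2 fold change was -0.18 over the 77 genes, against 0.01 over all tested genes and -0.08 over 2086 other coding genes of at least 100 CPM (CPM, counts relative to the library total, with TMM scaling factors). Of the 77 values, 64 were negative and 13 positive. The median was -0.15 in the 60S and -0.22 in the 40S subunit. In bulk RNA, fewer cells of a kind and less RNA per cell cannot be told apart.

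In the edgeR quasi-likelihood test with a Benjamini-Hochberg adjusted p under 0.05, 5 ribosomal protein genes fell, 1 rose and 71 were not called. The falls are 6.49% of the 77 genes, below the 9.94% of all tested genes called lower. The rise is 1.3%, against 14.2% of all tested genes called higher. Of 2086 other coding genes of at least 100 CPM, 476 were called lower and 344 higher. Groups did not overlap for 11 genes that were lower (14.3%, against 19.3% of all tested genes) and for 2 that were higher (2.6%, against 23.0%). The count depended on the test: DESeq2 called 14 lower (18.2%) and 3 higher (3.9%), against 14.0% and 16.3% of all tested genes. The count of falls rested on single libraries: it was 10 (13.0%, against 7.47% of all tested genes) without overexpressing replicate 3, and 2 (2.6%) without any one of the other 5 libraries. Of all tested genes 9.15% and 5.62% were called lower without overexpressing replicates 1 and 2, and 6.02%, 6.34% and 10.9% without control replicates 1, 2 and 3. The median was -0.29 without overexpressing replicate 3 and -0.06 without control replicate 3.

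**Figure D1:**
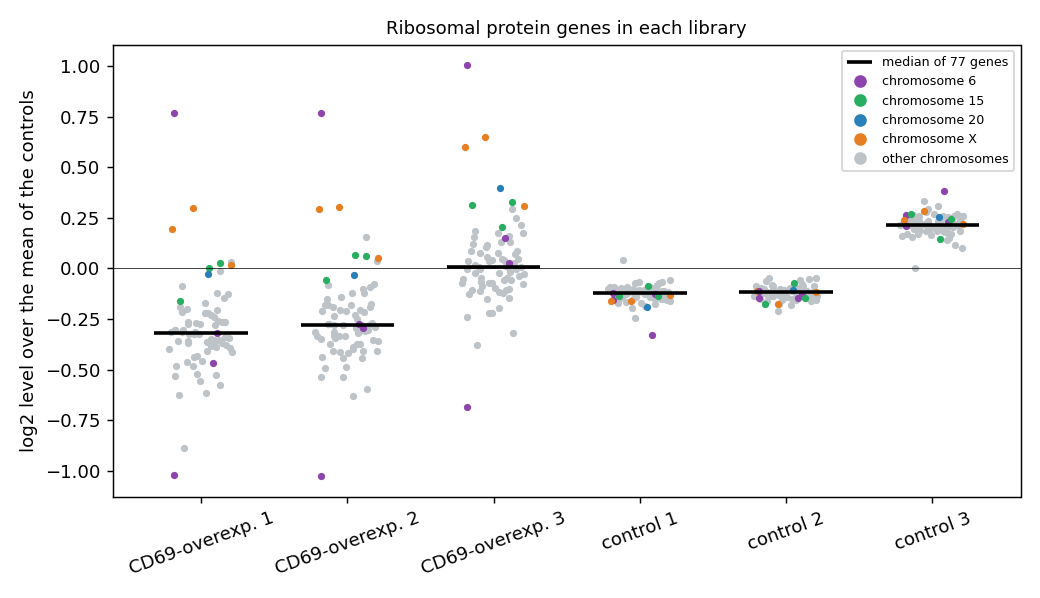
Each point is 1 of the 77 ribosomal protein genes in 1 library, as its log2 CPM over its own control mean; bars are the library medians and colours mark chromosomes 6, 15, 20 and X. Medians are -0.32, -0.28 and 0.01 in the overexpressing libraries and -0.12, -0.12 and 0.21 in the controls, and in each overexpressing library 1 gene of chromosome 6 (RPL10A) lies highest and another (RPS12) lowest.

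Replicate 3 carried more ribosomal protein RNA in both groups. It was the highest library of its group for 76 of the 77 genes among overexpressing libraries and for 76 of the 77 among controls, with median log2 differences over the mean of replicates 1 and 2 of 0.31 and 0.33. The same shift ran with coding length in other coding genes of at least 5 CPM. In genes with a coding length under 600 bases replicate 3 differed by 0.18 in overexpressing cells and 0.18 in controls, and in genes of 2400 bases or more by -0.16 and -0.18. Of the ribosomal protein genes 55 have a coding length under 600 bases, with differences of 0.32 and 0.36, and the 22 longer ones had 0.27 and 0.32. The part of coding length in this shift was not tested. With replicate 3 of both groups left out, an alternative chosen after seeing the data, 54 ribosomal protein genes (70.1%) fell and 7 (9.09%) rose, against 14.8% and 16.3% of all tested genes. The median was then -0.17. That test has 2 libraries in each group.

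In the 60S subunit 3 genes fell. RPL11, which with RPL5 and 5S RNA can bind MDM2 when assembly fails, had 780.4, 770.1 and 933 CPM in the overexpressing libraries, against 1059, 1065 and 1366 CPM in the controls. Every overexpressing library lay below every control, and the groups came near each other only through replicate 3 of the overexpressing cells. Its log2 fold change was -0.49 (SE 0.12; quasi-likelihood test of edgeR, Benjamini-Hochberg adjusted p = 0.0232). RPL21 had 229, 326 and 325 CPM in the overexpressing libraries, against 435, 409 and 423 CPM in the controls, with overexpressing replicate 1 lowest of all and no overlap, for a log2 fold change of -0.53 (SE 0.13; quasi-likelihood test of edgeR, Benjamini-Hochberg adjusted p = 0.0248). Here 51.1% of the 150-base stretches of the transcripts occur elsewhere in the annotation, and RPL21 pseudogenes held counts equal to 43.7% of its own, so its value is uncertain. RPL22, an RNA-binding protein of the 60S surface, had 329, 346 and 416 CPM in the overexpressing libraries, against 463, 448 and 544 CPM in the controls. The groups did not overlap and the log2 fold change was -0.41 (SE 0.11; quasi-likelihood test of edgeR, Benjamini-Hochberg adjusted p = 0.0308). Part of its counts is uncertain, since exons of a gene on its strand and of RNF207 on the other strand lie over it.

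Each of these 3 calls was lost under some alternatives. RPL11 kept its call under 17 of 22 alternatives and lost it without overexpressing replicate 1 (adjusted p = 0.0704) or 2 (0.0992). RPL21 kept its call under 16 of 22 and lost it without any one control (0.0509 to 0.0784). RPL22 kept its call under 13 of 22 and lost it without any one of 5 libraries, all but overexpressing replicate 3 (0.0519 to 0.121).

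RPL10A was the one ribosomal protein gene that rose. It encodes uL1, the protein of the L1 stalk, which guides spent tRNA out of the ribosome, and lies on GRCh38 chromosome 6, 35468408 to 35470785, plus strand (ENSG00000198755). Its level was 1454, 1455 and 1714 CPM in the overexpressing libraries, against 786, 791 and 988 CPM in the controls, or 1541 ± 150.2 CPM in overexpressing cells and 855 ± 115 CPM in controls (SD, n = 3 each). The lowest overexpressing library lay well above the highest control. The log2 fold change was 0.85 (SE 0.11; quasi-likelihood test of edgeR, Benjamini-Hochberg adjusted p = 0.00144), and the call held under all 21 alternatives that kept chromosome 6, with log2 fold changes of 0.76 to 1.02. No 150-base stretch of its transcripts occurs elsewhere in the annotation.

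RPL39 and RPL36A stood next in size among the 60S genes that were higher, and neither passed the test. RPL39, a small protein of the exit tunnel, had 206, 207 and 264 CPM in the overexpressing libraries, against 151, 149 and 205 CPM in the controls. Its groups just missed each other, 205 CPM in the highest control and 206 CPM in the lowest overexpressing library, and the log2 fold change was 0.43 (SE 0.15; quasi-likelihood test of edgeR, Benjamini-Hochberg adjusted p = 0.0771). RPL36A, a protein near the tRNA exit site, had 263, 281 and 349 CPM in the overexpressing libraries, against 206, 213 and 271 CPM in the controls, with overlap between control replicate 3 and overexpressing replicate 1, and a log2 fold change of 0.37 (SE 0.14; quasi-likelihood test of edgeR, Benjamini-Hochberg adjusted p = 0.0923). Of its 150-base stretches 73.2% occur elsewhere, in part in the read-through gene RPL36A-HNRNPH2. Both were called without control replicate 3 (adjusted p = 0.0131 for RPL39 and 0.0254 for RPL36A).

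In the 40S subunit RPS12 had the largest change. The gene encodes eS12, a protein of the 40S head, and lies on chromosome 6, 132814441 to 132817564, plus strand (ENSG00000112306). Its level was 594, 593 and 752 CPM in the overexpressing libraries, against 1081, 1090.0 and 1447 CPM in the controls, or 646 ± 91.5 CPM in overexpressing cells and 1206 ± 209 CPM in controls (SD, n = 3 each). No overexpressing library reached the lowest control. The log2 fold change was -0.90 (SE 0.14; quasi-likelihood test of edgeR, Benjamini-Hochberg adjusted p = 0.00335), and the call held under all 21 alternatives that kept chromosome 6, with log2 fold changes of -1.02 to -0.73. Of its 150-base stretches 0.21% occur elsewhere in the annotation.

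RPS3, which lines the channel where mRNA enters the 40S subunit, was the other 40S gene that fell. It had 1249.5, 1248 and 1530.3 CPM in the overexpressing libraries, against 1640.3, 1627 and 2156 CPM in the controls. Overexpressing replicate 3 came within reach of control replicates 1 and 2 without overlap. The log2 fold change was -0.43 (SE 0.13; quasi-likelihood test of edgeR, Benjamini-Hochberg adjusted p = 0.0499), just inside the threshold, while RPL7, a 60S protein, had a log2 fold change of -0.42 and an adjusted p of 0.050 in the same test, just outside it. RPS3 kept its call under 11 of 22 alternatives and lost it without any one library other than overexpressing replicate 3 (0.0673 to 0.171).

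RPL10A and RPS12 had the highest and lowest of the 77 log2 fold changes. The pair was thus picked by its values, and its ratio was bound to differ between the groups. RPL10A counts were 245%, 246% and 228% of RPS12 counts in the overexpressing libraries, against 72.7%, 72.5% and 68.3% in the controls. Within each group this ratio varied little, replicate 3 included.

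**Figure D2:**
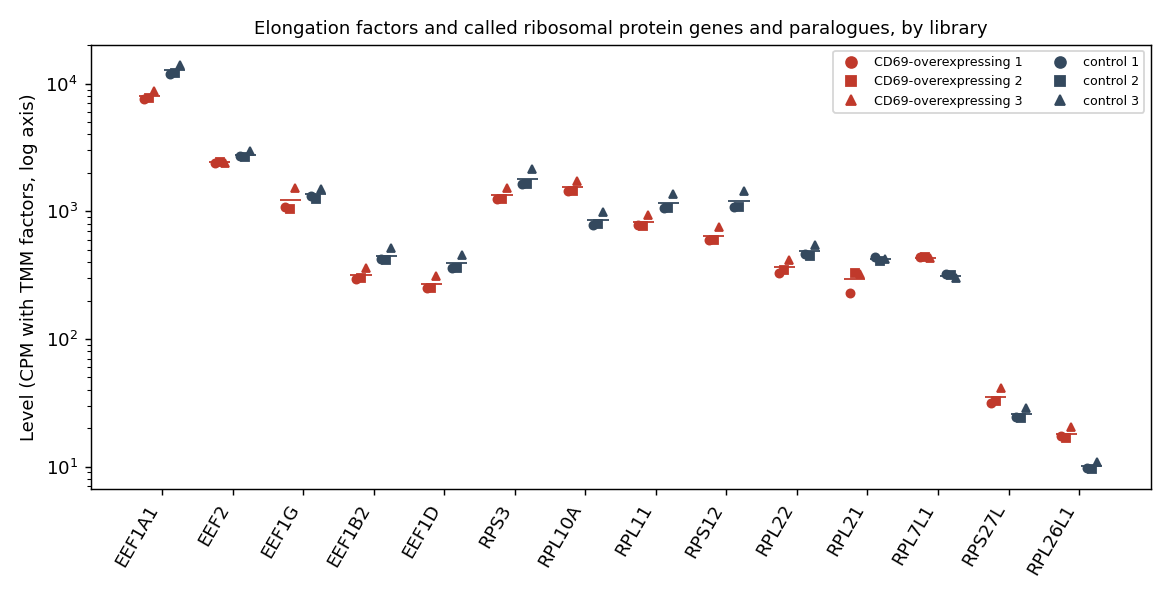
Level (CPM, log axis) of the 5 elongation factor genes and of each called ribosomal protein gene and paralogue, by library, with the overexpressing libraries left of the controls; symbols mark replicates and lines the group means. RPL10A, RPL7L1, RPS27L and RPL26L1 lie higher in the overexpressing libraries, EEF1G overlaps, the other genes lie lower, and replicate 3 is the highest of its group in most of them.

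Most abundant among the ribosomal protein genes were RPL4, RPS2 and RPL3, none of them called. RPL4, a 60S protein that reaches into the exit tunnel, had 2618, 2731 and 3009 CPM in the overexpressing libraries, against 2461, 2485 and 2886 CPM in the controls, overlapping, with a log2 fold change of 0.09 (SE 0.08; quasi-likelihood test of edgeR, Benjamini-Hochberg adjusted p = 0.471). RPS2, a 40S protein next to RPS3, had 1957, 1929.8 and 2304 CPM in the overexpressing libraries, against 2267, 2249 and 2830.4 CPM in the controls, also overlapping, and its log2 fold change was -0.25 (SE 0.11; quasi-likelihood test of edgeR, Benjamini-Hochberg adjusted p = 0.152). RPL3, which lies close to the peptidyl transferase centre, had 1788, 1757 and 2092 CPM in the overexpressing libraries, against 2110.1, 2104 and 2611 CPM in the controls. Its groups did not overlap, yet the log2 fold change was -0.28 (SE 0.11; quasi-likelihood test of edgeR, Benjamini-Hochberg adjusted p = 0.105).

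Most of the elongation factor genes fell. Together the 5 genes held 1.18%, 1.18% and 1.32% of counts in the overexpressing libraries, against 1.69%, 1.70% and 1.90% in the controls, with no overlap. Of the 5 genes, 4 fell and 0 rose (the same with DESeq2 and at an unadjusted p under 0.05), where 9.94% of all tested genes were called lower (14.0% with DESeq2, 16.4% at the unadjusted p). Among 2086 other coding genes of at least 100 CPM, 476 were called lower and 344 higher. All 5 log2 fold changes of the elongation factor genes were negative with a median of -0.50.

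EEF1A1, the tRNA carrier and the most abundant of the 98 genes by CPM, had 7628, 7737 and 8689 CPM in the overexpressing libraries, against 12009.9, 12135 and 14059 CPM in the controls. It lies on chromosome 6, 73515750 to 73523797, minus strand (ENSG00000156508). All 3 overexpressing libraries lay far below all 3 controls, 8018 ± 584 CPM in overexpressing cells and 12735 ± 1149 CPM in controls (SD, n = 3 each), and the log2 fold change was -0.67 (SE 0.08; quasi-likelihood test of edgeR, Benjamini-Hochberg adjusted p = 0.00115). The call held under all 21 alternatives that kept chromosome 6 (adjusted p = 3.44e-11 to 0.0228). Of its 150-base stretches 33.1% occur elsewhere, and EEF1A1 pseudogenes held counts equal to 7.67% of its own. Its processed pseudogene EEF1A1P5, on chromosome 9, was called lower as well, with a log2 fold change of -0.58 (SE 0.08; quasi-likelihood test of edgeR, Benjamini-Hochberg adjusted p = 0.00164), and reads shared by EEF1A1 and EEF1A1P5 were not separated here.

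The eEF1B complex is represented by its beta, delta and gamma subunits. EEF1B2, the beta subunit that recharges eEF1A, had 293, 302 and 358 CPM in the overexpressing libraries, against 424, 414 and 512 CPM in the controls. No library of one group reached the other, and the log2 fold change was -0.50 (SE 0.11; quasi-likelihood test of edgeR, Benjamini-Hochberg adjusted p = 0.0138). EEF1D, the delta subunit, had 249, 252 and 309 CPM in the overexpressing libraries, against 361, 359 and 457 CPM in the controls, again without overlap, and a log2 fold change of -0.54 (SE 0.12; quasi-likelihood test of edgeR, Benjamini-Hochberg adjusted p = 0.0173). EEF1G, the gamma subunit that holds the complex together, had 1089, 1043 and 1528 CPM in the overexpressing libraries, against 1322, 1257 and 1508 CPM in the controls. Here overexpressing replicate 3 was the highest library of all, and the log2 fold change was -0.16 (SE 0.15; quasi-likelihood test of edgeR, Benjamini-Hochberg adjusted p = 0.487). For EEF1G 89.6% of the 150-base stretches occur elsewhere, and another gene is annotated over it on the same strand, so its count depends on how shared reads were assigned. The EEF1B2 call was lost without overexpressing replicate 2 (adjusted p = 0.0673) and the EEF1D call without overexpressing replicate 1 (0.0560) or 2 (0.0786). Exons of NDUFS1 on the opposite strand lie over EEF1B2 and those of TIGD5 over EEF1D.

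EEF2, the translocase, changed least among the called factors. It had 2394, 2448 and 2401 CPM in the overexpressing libraries, against 2699, 2678 and 2952 CPM in the controls, without overlap and with overexpressing libraries close together. The log2 fold change was -0.20 (SE 0.06; quasi-likelihood test of edgeR, Benjamini-Hochberg adjusted p = 0.0439). It kept its call under 11 of 22 alternatives and lost it without any one library other than control replicate 3 (0.0874 to 0.146).

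**Figure D3:**
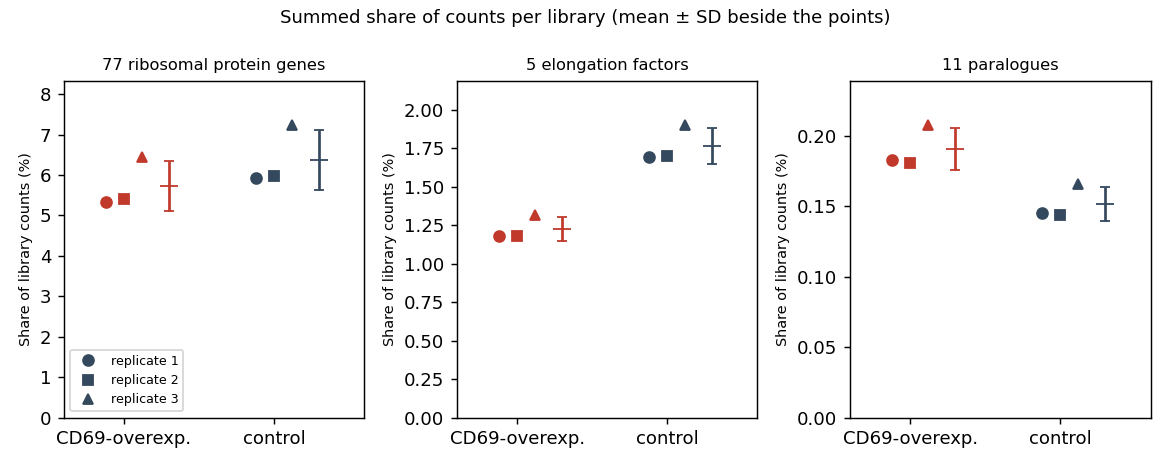
Percent of all counts held by each class of genes in the 3 overexpressing libraries (left) and the 3 controls (right), with mean and SD beside the points and axes from 0. Elongation factors are lower (1.18% to 1.32% against 1.69% to 1.90%) and paralogues higher (0.18% to 0.21% against 0.14% to 0.17%) in the overexpressing libraries without overlap, while the ribosomal protein shares overlap.

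Among the paralogues some rose. They are near copies of ribosomal proteins, mostly with low or tissue-limited expression, that can take the place of the standard protein or act apart from the ribosome. The 11 genes held 0.183%, 0.181% and 0.208% of counts in the overexpressing libraries and 0.145%, 0.144% and 0.166% in the controls, with most of it in RPS4X and RPL7L1. Of the 9 tested, 3 rose and none fell, against 14.2% and 9.94% of all tested genes. At an unadjusted p under 0.05, 5 were higher and 1 lower, against 20.3% and 16.4% of all, and DESeq2 called 4 higher and 0 lower, against 16.3% and 14.0%.

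RPL26L1, which differs from RPL26 by few residues, changed most among the called paralogues. It had 17.3, 16.8 and 20.3 CPM in the overexpressing libraries, against 9.76, 9.64 and 10.8 CPM in the controls, and the groups lay far apart. The log2 fold change was 0.84 (SE 0.12; quasi-likelihood test of edgeR, Benjamini-Hochberg adjusted p = 0.00187). Counts of RPL26L1 were 2.57 ± 0.08% of those of RPL26 in overexpressing libraries and 1.37 ± 0.05% in controls (SD, n = 3 each), so the ratio separated the groups as well. The call held under 21 of 22 alternatives and was lost with overexpressing replicate 1 alone against the controls (adjusted p = 0.0627). Exons of RPL26L1-AS1 lie over it on the opposite strand.

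RPL7L1, which takes part in maturation of the large subunit, had 437, 439 and 428 CPM in the overexpressing libraries, against 325, 315 and 299 CPM in the controls. The groups did not overlap, and replicate 3 was the lowest library of each. The log2 fold change was 0.47 (SE 0.06; quasi-likelihood test of edgeR, Benjamini-Hochberg adjusted p = 0.00113). RPS27L, a paralogue of RPS27 induced by p53, had 31.7, 32.5 and 41.6 CPM in the overexpressing libraries, against 24.4, 23.9 and 28.8 CPM in the controls, with overexpressing replicate 3 highest and no overlap, and a log2 fold change of 0.46 (SE 0.13; quasi-likelihood test of edgeR, Benjamini-Hochberg adjusted p = 0.0388). Its counts were 14.8 ± 0.56% of those of RPS27 in overexpressing libraries and 9.71 ± 0.09% in controls (SD, n = 3 each). The call was lost without control replicate 1 (adjusted p = 0.127) or 2 (0.147) and without overexpressing replicate 2 (0.0769) or 3 (0.0928).

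The remaining paralogues did not pass the test. RPS4X had 1228, 1226 and 1495 CPM in the overexpressing libraries, against 989.9, 980.3 and 1239.9 CPM in the controls, with control replicate 3 above overexpressing replicates 1 and 2, and a log2 fold change of 0.30 (SE 0.12; quasi-likelihood test of edgeR, Benjamini-Hochberg adjusted p = 0.109); it was called without control replicate 3 (0.0235). RPL39L had 13.7, 15.0 and 15.0 CPM in the overexpressing libraries, against 8.96, 9.29 and 13.2 CPM in the controls, without overlap, and a log2 fold change of 0.47 (SE 0.16; quasi-likelihood test of edgeR, Benjamini-Hochberg adjusted p = 0.0754). RPL22L1 had 14.7, 16.1 and 19.8 CPM in the overexpressing libraries, against 19.5, 22.2 and 21.9 CPM in the controls, overlapping, and its log2 fold change was -0.33 (SE 0.13; quasi-likelihood test of edgeR, Benjamini-Hochberg adjusted p = 0.105). RPL36AL, with 61.0, 60.0 and 77.7 CPM in the overexpressing libraries, against 64.9, 61.5 and 81.7 CPM in the controls, overlapped fully and had a log2 fold change of -0.07 (SE 0.14; quasi-likelihood test of edgeR, Benjamini-Hochberg adjusted p = 0.769). RPL3L, a muscle form of RPL3, stayed below 0.5 CPM in every library, with a log2 fold change of -0.03 (SE 0.72), and RPS4Y1 was scarce and not called.

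The 5 other rows that the names took in were not called either, by edgeR or DESeq2, and none had an unadjusted p under 0.05. They are the read-through genes RPL17-C18orf32, RPL36A-HNRNPH2 and RPS10-NUDT3, RPS27AP5, named as a pseudogene, and RPS19BP1, which encodes a protein that binds RPS19. Their log2 fold changes lay between -1.02 and -0.23. The libraries of some read-through genes scattered widely, and RPL36A-HNRNPH2 had 26.3, 1.44 and 3.41 CPM in the overexpressing libraries, against 14.3, 15.3 and 14.7 CPM in the controls.

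Ribosomal protein genes of some chromosomes differed in sign from most of the rest. Chromosomes 6, 15, 20 and X were singled out because earlier results of these same data gave them as differing. The values below are thus a description and no independent support. Each gene was set against its coding neighbours within 5 Mb on each side, those of at least 5 CPM outside the 98 genes. All 7 ribosomal protein genes of chromosomes 15, 20 and X, RPL4, RPLP1, RPS21, RPL10, RPL36A and RPL39 among them, had positive log2 fold changes. Their median was 0.13, and none of the 7 was called. The values of RPLP1 (0.05, SE 0.16) and RPS21 (0.13, SE 0.15) lay within their SE of 0. Both turned negative without overexpressing replicate 3 (-0.11 and -0.03). Of the 66 outside chromosomes 6, 15, 20 and X, 61 were negative and 5 positive, with a median of -0.20. The neighbours of those 7 had median log2 fold changes of 0.38 to 0.63. Those of the paralogues RPS4X and RPS27L had 0.40 and 0.36.

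Chromosome 6 held both ends of the range. Around RPL7L1 the neighbours had a median of 0.67, with 49 of 58 called higher. Around EEF1A1, on the long arm, the median was -0.48, with 7 of 14 called lower, and around RPS12, also on the long arm, it was -0.34, with 9 of 16 called lower. RPL10A lay far above its wider surroundings, where the median of 130 neighbours was 0.08. Its nearest 6 coding genes, ZNF76, DEF6, PPARD, FANCE, TEAD3 and FKBP5, were all called higher, with log2 fold changes of 1.08 to 3.5 and a median of 2.04, all above that of RPL10A. RPS18 and RPS10, the other ribosomal protein genes of the short arm, had log2 fold changes of -0.19 and -0.17, and neighbours within 5 Mb at 0.07 and 0.08. RPL26L1, on chromosome 5, had neighbours at -0.04, and none of its nearest 6 was called. Whether position has a part in any of these changes was not tested.

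Across the 89 genes with at least 8 such neighbours, the log2 fold change went with the neighbours' median with a Pearson's r of 0.648 and a Spearman's rho of 0.576. Without chromosomes 6, 15, 20 and X, picked from earlier results of these data, the r was 0.315 over 74 genes. These values describe genes, which are not independent replicates, share the same 6 libraries and often share neighbours. Of the 89, 79 lay below their neighbours, by a median difference of -0.17. Among the 77 ribosomal protein genes 70 did.

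**Figure D4:**
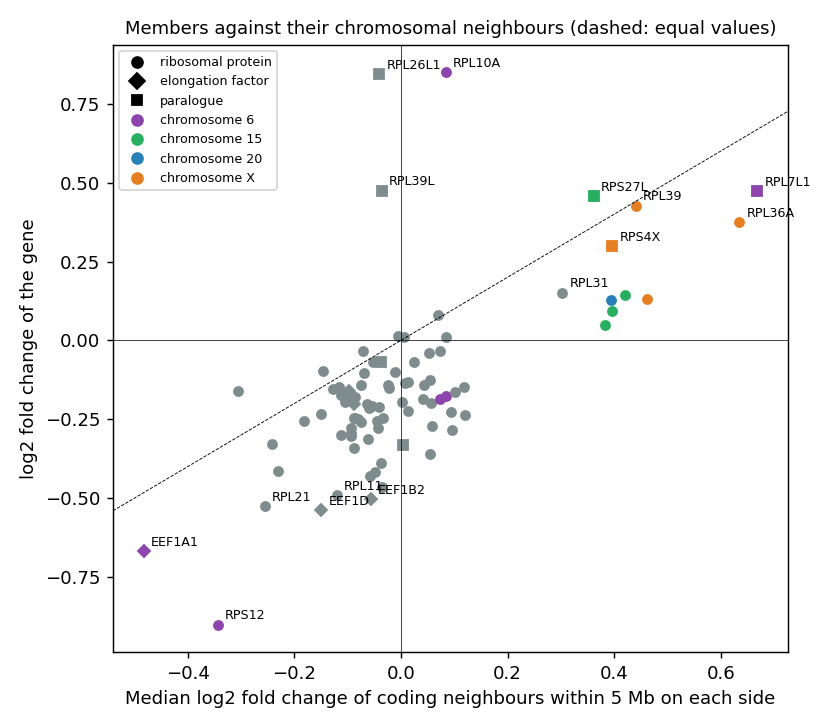
Log2 fold change of each ribosomal protein, paralogue and elongation factor gene (y) against the median of its coding neighbours within 5 Mb (x), with the line of equality; colours mark chromosomes 6, 15, 20 and X. Genes of chromosomes 15, 20 and X lie to the right, EEF1A1 and RPS12 to the lower left, 79 of the 89 genes lie below the line, and RPL10A and RPL26L1 lie far above it.

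Scaling each library to its ribosomal protein counts, also chosen after seeing the data, asks which members changed relative to the class. It moved the median of all tested genes to 0.16 and that of the class to -0.02 (0.01 in the 60S and -0.06 in the 40S subunit, so the sign of the 60S median turned). On this scale 7 of the 77 genes (9.09%) were called higher, among them RPL10A (log2 fold change 1.02), RPL39 (0.59), RPL36A (0.54), RPL31 (0.31), RPL10 (0.30) and RPL4 (0.26), against 11.6% of all tested genes. RPS12 (-0.73), RPL11 (-0.32), RPS3 (-0.26) and RPL7 (-0.25) were called lower, 5.19% against 2.31%. By construction this scaling takes out any shift that the class shares, that of replicate 3 included, and sets the class median near 0. The SE of RPL11 went from 0.12 to 0.06 and that of RPL7L1 from 0.06 to 0.15. Genes called lower among all tested went from 1937 to 451. The shares of the class and of all tested genes thus cannot be compared on equal terms here. RPL31, on chromosome 2, had neighbours at 0.30, 24 of 45 called higher. EEF1A1 (-0.50), EEF1D (-0.37) and EEF1B2 (-0.34) remained lower on this scale, and EEF2 (-0.04) and EEF1G (-0.01) were not called. Among paralogues RPL26L1 (1.00), RPL39L (0.66), RPL7L1 (0.63), RPS27L (0.61) and RPS4X (0.46) were called higher. Of the other TOP mRNAs 1 of 24 and of the snoRNA hosts 2 of 14 were still called lower. RPL31 and RPL7 are named after their values were seen. Counts of EEF1A1, RPL4, RPL10, RPL31 and RPS18 are uncertain in part because a gene on the opposite strand overlaps their exons, those of RPS2 and RPS10 because a gene on the same strand does, and 56.5% of the 150-base stretches of RPL7 occur elsewhere.

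**Figure D5:**
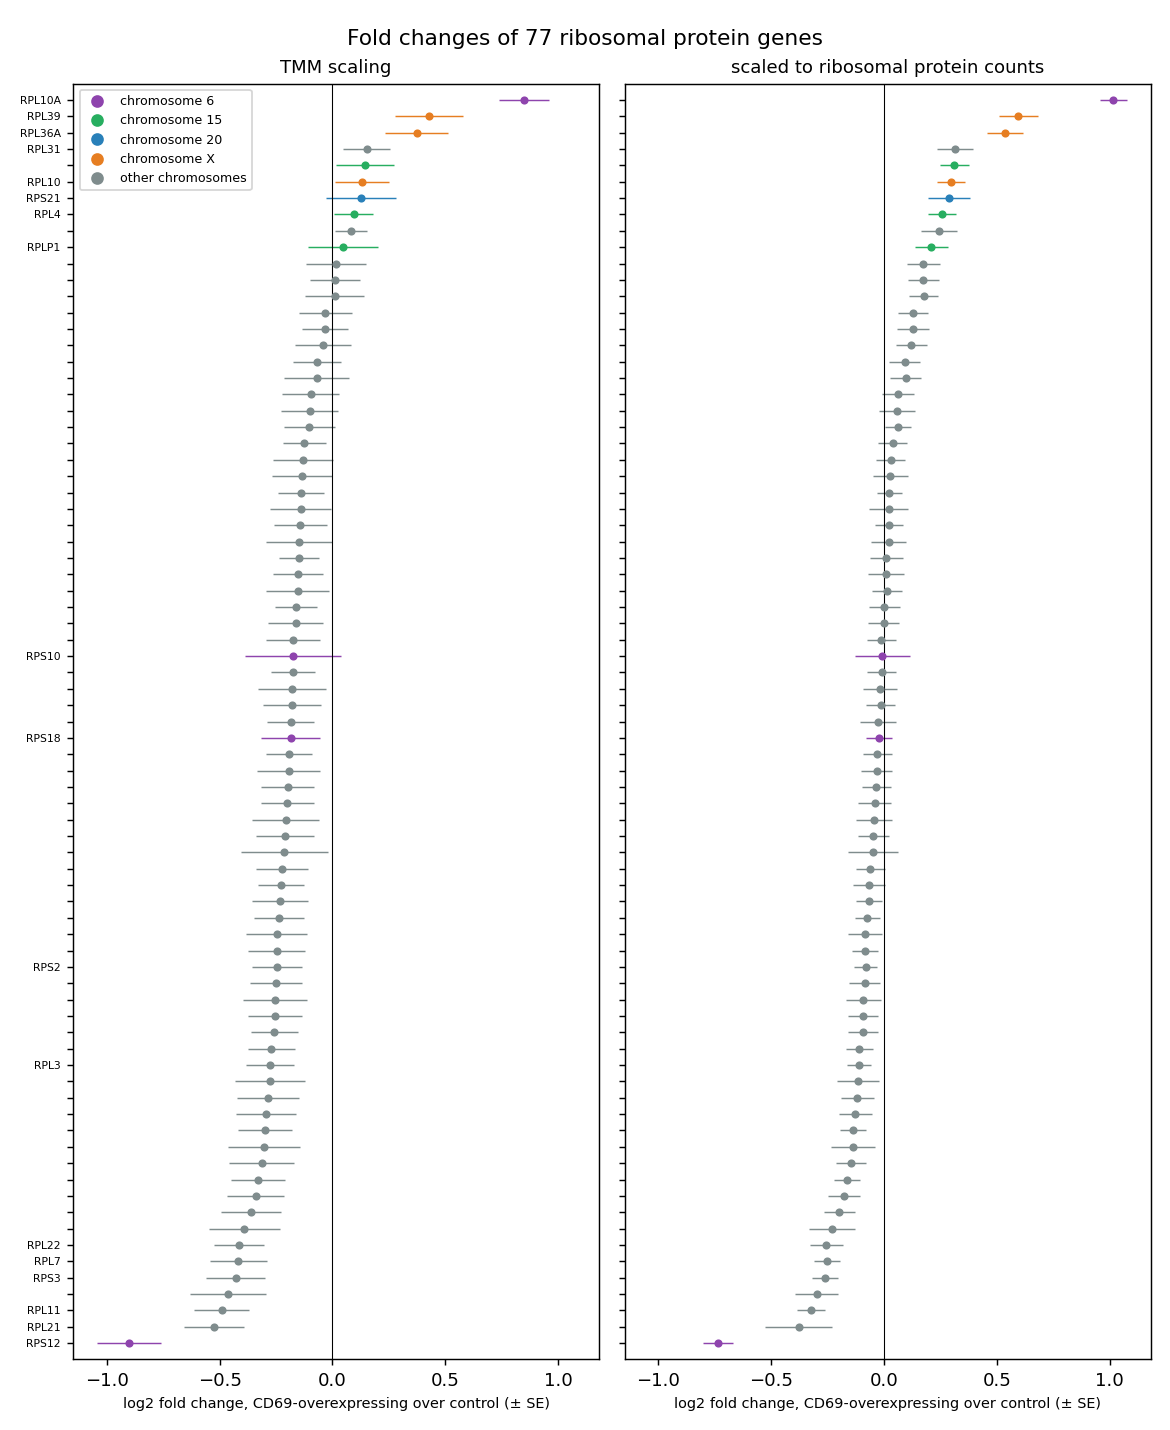
Log2 fold change (overexpressing over control, with SE bars) of the 77 ribosomal protein genes in order of size, with TMM scaling (left) and scaled to ribosomal protein counts (right); colours mark chromosomes 6, 15, 20 and X, and genes described in the text carry names. RPL10A lies at the top and RPS12 at the bottom of both panels, the 7 genes of chromosomes 15, 20 and X lie right of 0 in both, and the remaining genes shift to the right by about the same amount under the second scaling.

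Other genes with TOP mRNAs were mostly on the lower side as well. Of 24 listed, 7 fell and 0 rose in the edgeR test, where 9.94% of all tested genes fell and 14.2% rose. DESeq2 called 11 lower and 0 higher, against 14.0% and 16.3% of all, and at an unadjusted p under 0.05 there were 12 and 0, against 16.4% and 20.3% of all. Of the 24, 23 had negative log2 fold changes, and the median was -0.20. PABPC1, the main poly(A)-binding protein, had 1777 ± 32.8 CPM in overexpressing cells and 2466 ± 89.0 CPM in controls (SD, n = 3 each), a log2 fold change of -0.47 (SE 0.06; quasi-likelihood test of edgeR, Benjamini-Hochberg adjusted p = 0.000861). NCL (nucleolin, of the nucleolus; -0.45) and PABPC4 (-0.44) fell by like amounts and VIM (vimentin, an intermediate filament; -0.94) by more. Of 14 TOP snoRNA host genes, which carry snoRNAs in their introns, 6 fell and 0 rose (8 and 0 with DESeq2 and at an unadjusted p under 0.05), against the same shares of all tested genes. SNHG5 (-0.70), SNHG29 (-0.57), SNHG1 (-0.34) and EPB41L4A-AS1 (-0.42) had the smallest p. Within the ribosomal protein genes, though, the 47 that met the start rule had a median of -0.18 and the 15 that did not of -0.16. All 5 called lower met it.

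Factors that act beside the ribosome moved in both directions, with more genes called lower than higher in each of the lists here. Log2 fold changes were negative for 29 of 38 initiation factor genes and 20 of 25 further elongation genes. They were negative for 17 of 24 chaperones and late assembly factors. Medians were -0.26 for the further elongation genes and -0.18 for the chaperones, against -0.20 for the other TOP mRNAs. The shares of all tested genes to set beside these counts are 9.94% lower and 14.2% higher. Of 38 initiation factor genes 12 fell, among them EIF3J (-0.72), EIF5 (-0.51) and EIF4G2 (-0.45), and 4 rose, EIF4H (0.35) among them, with a median of -0.18. Of 25 further elongation genes 9 fell, such as EEF1E1 (-0.55), a part of the multi-synthetase complex, and DPH2 (-0.51), which helps make the diphthamide of eEF2, and 2 rose, GTPBP2 (0.59), a ribosome rescue GTPase, and EEF1AKMT3 (0.64), a methyltransferase of eEF1A. Of 24 chaperones and late assembly factors 8 fell, SBDS (-0.41) and TSR1 (-0.40) among them, and 2 rose, BYSL (0.54) and TSR2 (0.46), the chaperone of RPS26. These values are log2 fold changes with adjusted p under 0.05 in the edgeR quasi-likelihood test.

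Of 31 genes of mTORC1 and TOP control 3 rose and 3 fell, with a median of -0.04, where 14.2% of all tested genes rose and 9.94% fell. DEPTOR, an inhibitor of mTOR, had 9.0 ± 0.10 CPM in overexpressing cells and 3.07 ± 0.79 CPM in controls (SD, n = 3 each), a log2 fold change of 1.55 (SE 0.20; quasi-likelihood test of edgeR, Benjamini-Hochberg adjusted p = 0.00145). PDCD4 (0.48), an inhibitor of eIF4A, rose as well. MLST8 (-0.61) and RPTOR (-0.53), subunits of the complex, fell. The mitochondrial ribosome, built from other proteins with no TOP motif in most of its mRNAs (6 of 69 met the start rule, 8.7%), had 7 genes that rose and 9 that fell of 78, to be read against the same shares, with a median of -0.11. Those named by their small p were MRPS10 (0.52) and MRPS18A (0.71), both of chromosome 6, and MRPL1 (-0.71) and MRPS27 (-0.40). Among the genes of these lists, exons of a gene on the opposite strand lie over VIM, PABPC4, SNHG29, EPB41L4A-AS1, EIF3J, EIF4G2, DPH2, GTPBP2, EEF1AKMT3, SBDS, TSR1, TSR2, DEPTOR, MLST8, PDCD4, RPTOR, MRPS18A and MRPS27, and exons of a gene on the same strand over EEF1E1 and EEF1AKMT3, so part of their counts is uncertain.

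CD69 had 98.3, 99.1 and 95.7 CPM in the overexpressing libraries, against 80.4, 81.9 and 70.6 CPM in the controls, a log2 fold change of 0.33 (SE 0.07; quasi-likelihood test of edgeR, Benjamini-Hochberg adjusted p = 0.0153). Total counts per library were 51543550 to 57463020. Summed promyelocyte markers were at 5292 to 5918 CPM in overexpressing libraries, against 2860 to 3073 CPM in controls, with 5 of 12 called higher and 1 lower. Of all tested genes 14.2% were called higher and 9.94% lower, the shares to set beside this list and those that follow. B lineage markers summed to 53.5, 257 and 266 CPM in the overexpressing libraries and 67.0 to 75.0 CPM in the controls, with 6 of 13 tested called higher and 1 lower and VPREB1 at 0. T and NK markers summed to 383 to 386 CPM against 391 to 424 CPM (CD3E and CD3G at 0), with 1 of 5 tested called higher and 2 lower. Log2 fold changes of these 5 ran from -4.31 to 2.02, so the sum hides changes in both directions. Erythroid and megakaryocyte markers summed to 6.51 to 8.17 CPM against 6.51 to 8.23 CPM (ALAS2, GATA1, GP9 and HBG1 among those at 0), with none of 4 tested called. Fibroblast and epithelial markers summed to 139, 55.2 and 50.0 CPM against 133 to 150 CPM, with 0 of 10 tested called higher and 1 lower. The part of these marker lists in the differences of the ribosomal protein and elongation factor genes was not tested. The median log2 level of the 77 genes over the control mean was -0.32, -0.28 and 0.01 in overexpressing replicates 1, 2 and 3. Their summed B lineage markers were at 53.5, 257 and 266 CPM.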

How the data were processed

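Poly(A) RNA of 6 NB4 libraries was made strand-specific and read in pairs, per the labels' protocols. The authors deposited 1 table of whole-number values per gene and library, treated here as estimated counts. Values of 4 are too frequent (1496 genes of control replicate 1, against 777 at 3), so a fragment may have been counted about 4 times and totals may overstate depth. FastQC, fastp, STAR, Subread and featureCounts are named in the submitters' processing notes, with build GRCh38 (hg38). Neither versions nor annotation, strand setting or counting unit are given in the sources used here. Without the strand setting, reads of overlapping genes on opposite strands cannot be told apart.

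After filterByExpr (19485 genes kept) and TMM scaling, edgeR 4.0.16 (glmQLFit, glmQLFTest) in R 4.3.3 tested each gene, two-sided, adjusted by Benjamini-Hochberg over all tested genes, threshold 0.05. No p-value was computed for a list. CPM are not corrected for length. Positions, coding lengths and shared 150-base stretches came from GENCODE release 29 of GRCh38, start windows from RefSeq. The test was also run on simulated counts, drawn apart for each gene and without the shift of replicate 3 that the ribosomal protein genes share. That run does not bear on the calls reported here. Libraries of a group differed by more than counting noise, with chi-square over its degrees of freedom at 2.36 to 14.1 on counts divided by 4.

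Members, the 11 gene lists and chromosomes 6, 15, 20 and X were chosen with earlier results of these data known. Named genes are called members, all elongation factors and tested paralogues, the 5 most abundant, the 10 largest changes, members of chromosomes 6, 15, 20 and X, and up to 4 called genes per list by p. Alternatives were RLE, upper-quartile, no factors, TMM from other genes, no filter, 50 counts in 3 libraries, DESeq2 1.42.0, limma-voom 3.58.1, glmTreat (fold 1.2), a replicate block, each library left out, counts divided by 4, overexpressing replicate 1 alone, pseudogene counts added, and chromosomes 6, 15, 20 and X left out. Added after seeing the data were scaling to ribosomal protein counts and leaving out replicate 3 of both groups. Promoters were searched for 2 motifs on both strands. Some genes within the naming rule are not reported here.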

Additional observations from a re-analysis of the deposited data

How the results depend on the processing

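The number of ribosomal protein genes called lower (5) ranged from 2 to 10 with 1 library left out. It was 2 (2.6%, against 1.76% of all tested genes) for overexpressing replicate 1 alone, 14 (18.2%, against 14.0%) with DESeq2, 3 (4.55%, against 8.24%) with chromosomes 6, 15, 20 and X left out, 1 (1.3%) against a fold of 1.2 (4.49% of all) and with no filter (4.28%), and 54 (70.1%, against 14.8%) with replicate 3 of both groups left out. The number called higher (1) ranged from 1 to 3 with 1 library left out, where 8.81% to 14.3% of all tested genes were called higher. It was 3 (3.9%, against 16.3%) with DESeq2 and 0 (against 11.9%) without those chromosomes (where RPL10A is not among the genes). It was 7 (9.09%, against 16.3%) with replicate 3 of both groups left out and 7 (9.09%, against 11.6%) when scaled to ribosomal protein counts. The 4 elongation factors called ranged from 1 to 4 with 1 library left out, where 5.62% to 10.9% of all tested genes were called lower. They were 2 without those chromosomes (EEF1A1 is then not among the genes), where 8.24% of all were called lower. Against a fold of 1.2 there was 1, where 4.49% of all were called lower. The causes of the other differences were not tested. The class median (-0.29 to -0.06) and the summed share (log2 -0.25 to -0.05) stayed negative with each library left out. The median was -0.18 in the main comparison and -0.02 when scaled to ribosomal protein counts, which sets the class near 0 by construction. With the replicate block, 52 ribosomal protein genes (67.5%, against 13.7% of all tested genes) were called lower and 5 (6.49%, against 16.4%) higher. Same-numbered libraries deviated together by r of -0.03, 0.05 and 0.07 across all tested genes. The numbers were therefore not taken to pair the libraries. That r cannot settle pairing for this class, where replicate 3 was highest in both groups for 76 of the 77 genes. The summed share of the 77 genes, overexpressing over same-numbered control, had ratios of 0.901, 0.907 and 0.889. Whether same-numbered libraries belong together was not settled. Of the named members' values under the alternatives, 608 kept direction and call, 58 lost the call, 43 gained it, and 20 values of members not called in the main comparison changed sign. Of these, 1, RPL36A-HNRNPH2 with overexpressing replicate 1 alone, passed the test there (log2 fold change 0.83, adjusted p = 0.0316). No called member changed sign. Total counts do not limit abundant members, but paralogues near 10 CPM, members with pseudogenes or read-through partners, and genes overlapped on the opposite strand are less certain.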

Other observations

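Promoters of the ribosomal protein genes, 250 bases before to 50 after the annotated start (RefSeq, 62 of 77 genes with an entry), were searched on both strands for 2 motifs. CCGGAAG, the core bound by ETS family factors, was present in 33.9%, against 20.9% of 11245 other tested coding genes, and in 43.5% of the mitochondrial ribosomal protein genes. AAGATGG, the core of the YY1 motif, was present in 14.5%, against 9.02%. Of the paralogues with an entry, 3 of 9 held CCGGAAG. Start sites of other sets differed in the share that met the start rule: it was 28.1% of initiation factor genes and 81.2% of the other TOP mRNAs with an entry. Other coding genes of at least 5 CPM that met the rule were called higher in 17.6% and lower in 15.6% of 629 cases, against 18.3% and 15.0% of 7730 that did not.

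The ratio of RPL36AL to RPL36A counts was 22.3 ± 0.93% in overexpressing libraries and 30.2 ± 1.32% in controls (SD, n = 3 each), without overlap, and that of RPL7L1 to RPL7 was 37.3 ± 4.94% and 20.3 ± 3.57%. The ratios of RPL22L1 to RPL22 and of RPL39L to RPL39 overlapped between the groups. Pseudogene rows of the members numbered 1679, of which 209 were tested. Of these 1 rose and 6 fell, where 14.2% of all tested genes rose and 9.94% fell. Their median log2 fold change was -0.19, close to that of the ribosomal protein genes themselves. Reads shared by pseudogenes and their parent genes were not separated, so the 2 medians are not independent.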
